A study of Mus musculus with 2 samples.

Results

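The nuclear genes of oxidative phosphorylation (OXPHOS) code for most subunits of the 5 enzyme complexes of the inner mitochondrial membrane. They were taken by symbol: all genes whose symbol starts with Ndufa, Ndufb, Ndufc, Ndufs, Ndufv, Uqcr, Cox4 to Cox8 or Atp5, and Sdha, Sdhb, Sdhc and Sdhd. Symbols starting with Ndufaf, which name assembly factors, were left out. The rule gave 86 of 32285 genes: 39 of complex I, 4 of complex II, 8 of complex III, 18 of complex IV and 17 of complex V. The rule reads symbols and no measured value, but it was set with earlier results of these data known. All 86 had at least 1 UMI, 79 reached 20 UMIs per 1000000 (CPM) in the mean of both libraries, and they lay on 19 chromosomes.

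Complexes I and II take electrons from NADH and succinate and pass them to ubiquinone. Complex III hands them to cytochrome c, complex IV gives them to oxygen, and complex V uses the proton gradient built by complexes I, III and IV to make ATP. The mitochondrial genome codes for a few core subunits of complexes I, III, IV and V, while complex II is coded wholly in the nucleus. Several nuclear subunits have isoform pairs, of which 1 is general and the other is kept for heart and skeletal muscle, testis, or cells of vessel walls and lung.

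The data were 2 droplet single-cell RNA libraries (10x Genomics 3′ chemistry) from the soft tissue around the Achilles tendon of mice. Both carried Hoxa11 wt/CreERT2 (a tamoxifen-inducible Cre at Hoxa11), R26 wt/LSL-rtTA (a Cre-dependent reverse tetracycline transactivator) and TetO-Vegfd (a tetracycline-controlled Vegfd transgene), so that Vegfd, a growth factor of lymphatic vessels, can be induced in cells of the Hoxa11 lineage. The injured library came from the tendon 7 days after a burn with tenotomy (cutting of the tendon). The uninjured library came from the opposite, uninjured tendon of mice that were also labelled burn/tenotomy, so it is not tissue of untreated mice. The mice were male and female and 8 to 12 weeks old. Drug dosing and the number of animals per library are not given in these sources, and control mice were not analysed here. Vegfd itself stood at 95.4 CPM in the injured and 23.6 CPM in the uninjured library. Both carried the transgene, so these levels check no label.

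After filtering, 9137 of 10691 injured and 4697 of 6850 uninjured barcodes were kept, with medians of 17461 and 15744 UMIs per cell. The limit of 10% mitochondrial UMIs removed 7.49% of injured and 26.4% of uninjured barcodes. The libraries shared 19 barcodes, of which 8 were kept in both. Each held cells of both sexes (Xist without Y-linked UMIs in 3562 and 2407 cells, the reverse in 3480 and 1520). Cells fell into 38 clusters, which were named from 21 marker lists, and a class name here means cells like that class. The tissue's own markers were present: fibroblast markers summed to 44900 and 40200 CPM in the mesenchymal cells, and tenocyte markers, which define tendon cells, to 1590 and 5400 CPM. The mesenchymal class also holds injured-library clusters with weak tenocyte or chondrocyte scores, led by Cxcl5 and Timp1 or by cell cycle genes, and the dendritic cluster was led by MHC class II genes. There was 1 library per group, so no test of injury was possible, ratios describe these libraries, and the 95% intervals (exact Poisson for levels and ratios, Clopper-Pearson for shares) cover counting error only.

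Regulatory sequence upstream of the genes is shown here because NRF1, the ETS-family factor GABP and YY1 are known to control many genes of all 5 complexes. RefSeq promoter windows (GRCm38.p6, 250 bases before to 50 after the start) were matched by symbol for 68 of the 86 members, which gave 73 promoters. On either strand, the NRF1 core GCGCATGC was in 13.7% of the member promoters and 2.71% of all 32851 promoters. The ETS core CCGGAAG was in 23.3% against 8.86%, and the YY1 core AAGATGGC in 12.3% against 2.75%. At least 1 of these cores was found for 30 of the 68 members, and both an NRF1 and an ETS core for 5. Median GC content was 57.3% in members and 52.7% in all promoters, so the shares are not matched for base composition. A match is a description of letters, not a binding site. The 250 bases before the start of 4 members are printed 5′ to 3′ on the gene's strand, with cores in capitals: 3 that hold NRF1 and ETS cores, 1 each of complexes V, II and IV, and Cox5a, the member with the highest ratio in several classes. In Atp5k (chr5:108434400-108434649, minus strand) and Cox6a1 (chr5:115348959-115349208, minus strand) the NRF1 core overlaps itself on the other strand. The ETS core of Cox6a1 is printed, and those of Atp5k and of Sdhb (chr4:140961021-140961270, plus strand) lie 13 and 7 bases past the start, outside the stretch. None of the 3 cores is in the window of Cox5a (chr9:57520982-57521231, plus strand).
Atp5k: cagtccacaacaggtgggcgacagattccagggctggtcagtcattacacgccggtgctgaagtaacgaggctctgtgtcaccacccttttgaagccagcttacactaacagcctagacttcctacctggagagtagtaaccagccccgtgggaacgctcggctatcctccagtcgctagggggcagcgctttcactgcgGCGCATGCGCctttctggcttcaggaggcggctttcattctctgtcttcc
Sdhb: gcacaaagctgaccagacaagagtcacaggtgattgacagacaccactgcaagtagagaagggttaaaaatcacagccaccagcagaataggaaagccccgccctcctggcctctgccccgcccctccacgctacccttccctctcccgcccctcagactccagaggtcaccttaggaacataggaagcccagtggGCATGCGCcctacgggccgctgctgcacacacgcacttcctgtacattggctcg
Cox6a1: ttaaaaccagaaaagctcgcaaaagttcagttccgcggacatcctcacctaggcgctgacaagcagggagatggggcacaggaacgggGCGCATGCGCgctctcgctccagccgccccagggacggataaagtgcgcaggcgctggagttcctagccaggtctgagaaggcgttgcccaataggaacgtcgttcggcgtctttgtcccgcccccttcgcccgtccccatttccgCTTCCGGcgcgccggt
Cox5a: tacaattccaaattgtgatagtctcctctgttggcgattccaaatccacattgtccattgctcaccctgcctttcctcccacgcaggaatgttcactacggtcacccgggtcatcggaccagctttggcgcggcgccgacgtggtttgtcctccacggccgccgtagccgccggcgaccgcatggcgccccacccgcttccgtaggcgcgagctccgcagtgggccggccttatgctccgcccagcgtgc

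Across cell classes, the 86 genes together took between 0.696% and 2.30% of a class's UMIs. The order in the injured library was pericyte or smooth muscle cells at 21300 CPM, lymphatic endothelial cells at 20540, keratinocytes at 20510, Schwann cells at 18710, dendritic cells at 18340, mesenchymal cells at 17500, vascular endothelial cells at 17310, mononuclear phagocytes at 16820, T or NK cells at 14540 and neutrophils at 6960 CPM. Lymphatic endothelial cells and keratinocytes did not differ beyond counting error (20380 to 20700 and 20430 to 20590 CPM). In the uninjured library the order was pericyte or smooth muscle cells at 23030 CPM, satellite cells or myoblasts at 20350, Schwann cells at 16020, dendritic cells at 15890, vascular endothelial cells at 14490, mesenchymal cells at 14320, lymphatic endothelial cells at 12880 and phagocytes at 10530 CPM. The intervals of Schwann (15820 to 16220) and dendritic cells (15730 to 16070) overlapped. The contractile and pericyte class was thus at the top of both orders, and phagocytes and lymphatic endothelial cells closed the uninjured order, whereas lymphatic endothelial cells stood next to the top of the injured one. A cluster of 25 myofibre-like cells of the uninjured library, below the minimum of 50 cells for a comparison, reached 88730 CPM.

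**Figure D1:**
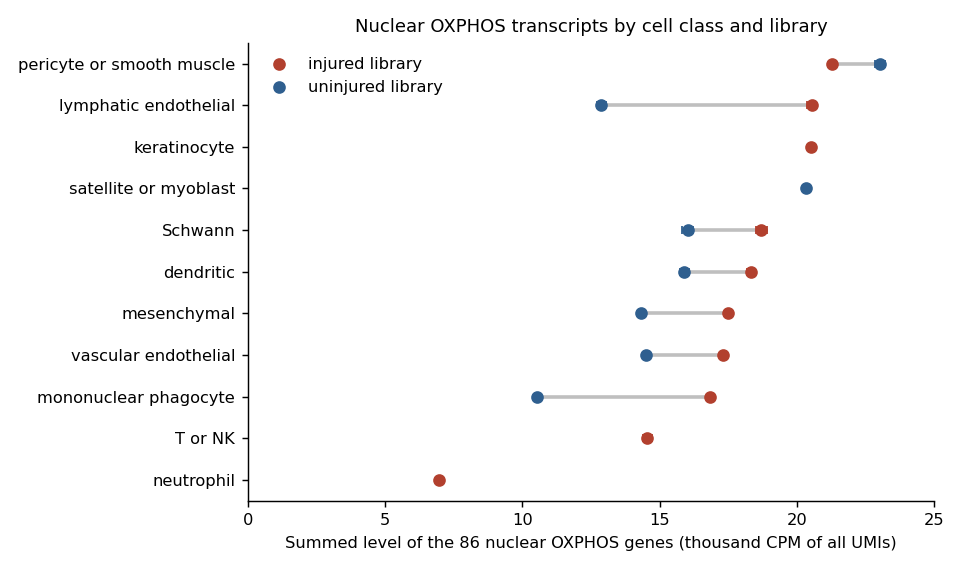
Summed level of the 86 nuclear OXPHOS genes (x axis, CPM of all UMIs divided by 1000) in each class of 50 or more cells, injured library in red and uninjured in blue, with grey lines joining the same class and bars for the exact Poisson 95% interval. Lymphatic endothelial cells (12880 and 20540 CPM) and mononuclear phagocytes (10530 and 16820 CPM) have the widest gaps, and only pericyte or smooth muscle cells are lower in the injured library.

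The make-up by complex was alike in both libraries. Over all cells, complex I gave 32.9% of member UMIs in the injured and 34.0% in the uninjured library, complex II 1.57% and 1.78%, complex III 9.44% and 9.78%, complex IV 26.0% and 25.3%, and complex V 30.2% and 29.1%. UMIs are counted at the 3′ end and are not scaled by length, so these shares compare numbers of captured transcripts. The most abundant members were Cox4i1, the largest nuclear subunit of complex IV (706 and 583 CPM, injured and uninjured here and in the pairs that follow), and Cox6c, a small subunit of it (665 and 561). In complex V they were Atp5e and Atp5l, the epsilon and g subunits (588 and 482, 535 and 408 CPM). In complex I they were Ndufa4 (456 and 317) and Ndufb1-ps (308 and 259), which GENCODE types as a bidirectional promoter lncRNA. In complex III they were Uqcrh, the hinge protein (380 and 366), and, by UMIs of both libraries together, Uqcrq (280 and 209), although Uqcrb was above it in the uninjured library (238 and 255). Complex II was the sparsest: Sdhb, its iron-sulfur subunit, stood at 91.0 and 78.5 CPM, and Sdha, the flavoprotein that oxidises succinate, at 62.0 and 73.7. Its membrane anchors Sdhc and Sdhd stood at 66.5 and 63.0, and at 54.9 and 54.7 CPM.

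Between the libraries, the summed level was higher in injured than in uninjured cells in 6 of 7 classes that had 50 or more cells in each. The ratio was 1.60 in mononuclear phagocytes (95% interval 1.58 to 1.61; 2749 injured and 416 uninjured cells) and 1.60 in lymphatic endothelial cells (1.57 to 1.62; 83 and 84 cells). It was 1.22 in mesenchymal cells (2383 and 1338 cells), 1.19 in vascular endothelial cells (1204 and 1616), 1.17 in Schwann cells (100 and 168) and 1.15 in dendritic cells (253 and 97). In pericyte or smooth muscle cells it was 0.925 (0.917 to 0.932; 454 and 216 cells), a log2 ratio of -0.11 that turned to 0.24 when each library was clustered alone and to 0.41 with a mitochondrial limit of 5%. Clustered alone, Schwann cells also turned, from 0.22 to -0.11.

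Markers of the classes moved with some of these ratios. In lymphatic endothelial cells the lymphatic markers summed to 5640 CPM in the injured and 14700 CPM in the uninjured library (1 of 8 entries at 0 in each), and fibroblast markers to 1020 and 141 CPM with none of 10 at 0. Their part in the OXPHOS difference was not tested. In Schwann cells the Schwann markers summed to 9350 and 48300 CPM, and the class joins a pair of clusters of opposite direction. Cluster 26, with Mbp among its leading genes, had OXPHOS levels of 14680 and 17530 CPM (30 and 119 cells), and cluster 28, led by Csmd1 and Nkain2, 19290 and 12140 CPM (70 and 49 cells). The Schwann values given here for single members carry that mixture. The same sum over all kept cells had a ratio of 1.15, but the libraries differ in their cell make-up.

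A count of single members shows how widely the difference was shared. A member was counted as higher or lower past 1.5-fold on log2(CPM + 5), among genes at 20 CPM or more. In phagocytes 48 of 78 members were higher and 0 lower, where 11.2% of all 6224 genes tested were higher and 10.8% lower. The median member had a log2 ratio of 0.67 and the median gene -0.01. In lymphatic endothelial cells 46 of 78 were higher and 0 lower (all genes 23.2% and 21.1%), with medians of 0.63 for members and 0.02 for all genes. In both classes 76 of 78 members had a ratio above 1.

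In the other classes few members passed 1.5-fold, although most had a ratio above 1 in all but pericyte or smooth muscle cells. In mesenchymal cells 5 of 79 were higher and 0 lower (all genes 11.0% and 13.8%), and 65 of 79 had a ratio above 1. The median log2 ratio of mesenchymal genes at 50 UMIs or more in each library was -0.12, and relative to it 11 members were higher. The share of all genes relative to that median was not computed, so the 11 have no background to be set against. In vascular endothelial cells 5 of 78 were higher and 0 lower (11.4% and 11.4%), with 65 of 78 above 1. In Schwann cells 6 of 78 were higher and 1 lower (23.7% and 17.2%), and in dendritic cells 2 of 79 were higher and 0 lower (12.3% and 12.9%). In pericyte or smooth muscle cells 1 of 81 was higher and 4 lower (16.9% and 13.5%), with 29 of 81 above 1. The 1 higher member, Cox6b2, reached the level of 20 CPM only through the injured library, where it is high. These shares lie below the background of their class. Over all cells 1 of 79 members was higher and 0 lower (11.5% and 14.2%).

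The classes are not single cell states, and in the phagocytes different clusters held most cells of each library. Of the clusters with 50 or more cells in both libraries, the macrophages led by MHC class II genes (Cd74, H2-Eb1; cluster 5) stood at 15940 and 11390 CPM, a ratio of 1.40. Those led by Ccl8, F13a1 and Mrc1 (cluster 13) stood at 12220 and 8991 CPM, a ratio of 1.36. In cluster 5, 15 of 78 members were higher and 0 lower (all genes 8.71% and 7.69%), and in cluster 13, 16 of 78 were higher and 1 lower (8.08% and 8.87%). The rest of the injured phagocytes were Pf4-led macrophages (cluster 2, 14810 CPM, 846 cells), monocytes (cluster 7, 17370 CPM, 677 cells) and an osteoclast-like cluster with Acp5, Mmp9 and Ctsk on top (cluster 12, 27820 CPM, 464 cells, median 3986.5 UMIs). Each of these 3 clusters had 20 or fewer uninjured cells. Cluster levels are pooled over UMIs, so deep cells weigh most, and that of cluster 12 is not the level of its typical cell. Among all injured phagocytes, those below 5000 UMIs stood at 14850 CPM (354 cells). Those of 40000 UMIs or more stood at 35040 CPM (43 cells). Without the osteoclast-like cluster the log2 ratio of the class was 0.54 in place of 0.68, and as the mean over the shared clusters it was 0.46.

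Mesenchymal cells also sat in different clusters by library. The 1 fibroblast cluster with 50 or more cells of both (cluster 4, led by Gsn and Clec3b) had no higher level in injured cells: 12390 CPM in 96 injured and 12790 CPM in 694 uninjured cells, a ratio of 0.969. The ratio of 1.22 for the class therefore compares injured clusters at 14070 CPM (cluster 3, led by Sfrp2 and Col14a1), 18570 (cluster 6), 19650 (cluster 9, led by Cxcl5 and Timp1) and 19640 (the cycling cluster 22) with uninjured fibroblasts at 12790 and 16090 CPM (clusters 4 and 23) and tenocytes at 16300 (cluster 14). A smaller fibroblast cluster led by Apod and Gpc3 (cluster 29) stood at 19240 CPM in 58 uninjured and 18050 CPM in 36 injured cells, level with the top injured clusters. On the shared cluster alone the log2 ratio was -0.05.

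Most vascular endothelial subsets had ratios nearer to 1 than the class. The capillary-type cluster 0 (Timp4, Cd36, Aqp1) stood at 14250 and 14030 CPM, a ratio of 1.02, and clusters 8, 10 and 21 had ratios of 1.08, 1.04 and 1.07. The cycling cluster 19 was the highest of the class in both, at 22810 and 19230 CPM, with a ratio of 1.19, the same as that of the class. Pericytes and smooth muscle parted: in the Rgs5-led cluster 11 the injured level was higher (20990 and 16610 CPM, ratio 1.26; 401 and 80 cells), with 19 of 81 members higher and 1 lower (16.6% and 14.3%). The Myh11-led smooth muscle cluster 27 had higher levels and the reverse order (24110 and 28730 CPM), with 48 injured and 98 uninjured cells. The class ratio of 0.925 thus joins clusters of opposite direction in unequal numbers, and without the Myh11-led cluster its log2 value was 0.38.

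**Figure D2:**
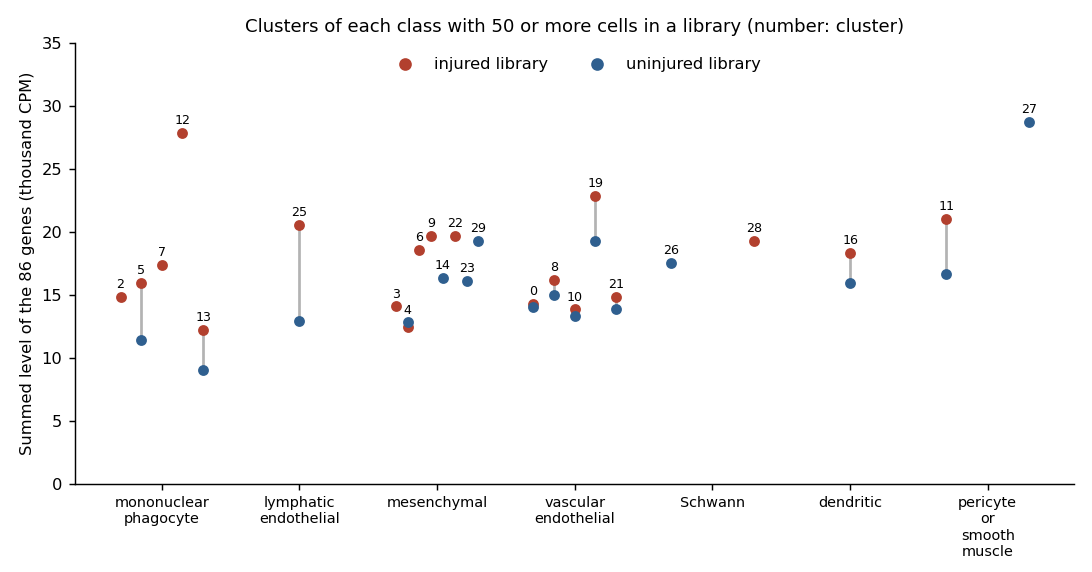
Summed level of the 86 genes (y axis, CPM divided by 1000) in each cluster with 50 or more cells in a library, grouped by class (x axis); red marks the injured and blue the uninjured library, numbers name clusters and lines join clusters that qualify in both. Clusters 5, 13, 25 and 11 have gaps, with the injured library higher, while clusters 4, 0 and 10 nearly coincide.

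Depth differed between the libraries within several classes. Median UMIs per cell were 44364 and 19161 in mesenchymal, 31876 and 17271 in lymphatic endothelial, 24677 and 14503 in vascular endothelial, and 13671 and 14950 in phagocyte cells. With cells thinned to 3000 UMIs, the median share of member UMIs per cell was 1.5% and 1.00% in phagocytes (1.54% and 0.994% before thinning) and 2.03% and 1.45% in lymphatic endothelial cells (1.93% and 1.31%). It was 1.70% and 1.40% in mesenchymal cells (1.74% and 1.41%), 1.57% and 1.43% in vascular endothelial cells (1.57% and 1.41%), and 2.07% and 2.13% in pericyte or smooth muscle cells (2.11% and 2.22%).

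Among cells of 10000 to 40000 UMIs only, phagocytes kept a ratio of 1.54 with 43 of 78 members higher (all genes 11.3%). In lymphatic endothelial cells the ratio was 1.22 (17000 and 13950 CPM; 44 and 46 cells) with 8 of 78 members higher, in place of 46, against 17.3% of all genes. Mesenchymal cells had a ratio of 1.15 with 2 of 79 higher (7.09%), and vascular endothelial cells 1.06 with 1 of 78 higher (10.9%). The phagocyte difference was thus nearly as large within that range. The lymphatic endothelial ratio was smaller, and the share of members higher fell below that of all genes. The counts by complex and by list given below use cells of all depths, so the lymphatic endothelial ones carry this limit. Within the range depth still differed in lymphatic endothelial cells, where 33 of 44 injured and 21 of 46 uninjured cells had 20000 UMIs or more.

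By complex, phagocyte ratios were 1.58 for complex I, 1.23 for II, 1.52 for III, 1.66 for IV and 1.61 for V. Lymphatic endothelial cells had 1.52, 1.20, 1.57, 1.61 and 1.72 in the same order, mesenchymal cells 1.16, 1.02, 1.21, 1.28 and 1.27, and vascular endothelial cells 1.13, 1.06, 1.19, 1.24 and 1.24. Complex II, the only complex that also belongs to the tricarboxylic acid cycle, had the lowest ratio of the 5 in each of these 4 classes, in dendritic cells (0.942) and in pericyte or smooth muscle cells (0.727), but not in Schwann cells, where it was 1.13 and complex I 1.08. It was also the lowest within macrophage clusters 5 and 13 (1.13 and 1.07). In fibroblast cluster 4 it was the highest, at 0.999. Complex V (0.968) lay below it (0.984) in cluster 0, and complex I (1.12) below it (1.20) in cluster 19. In the Rgs5-led cluster 11 it was 0.973 (0.873 to 1.09). The class value of 0.727 also includes the Myh11-led cluster, which the libraries hold in unequal numbers.

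**Figure D3:**
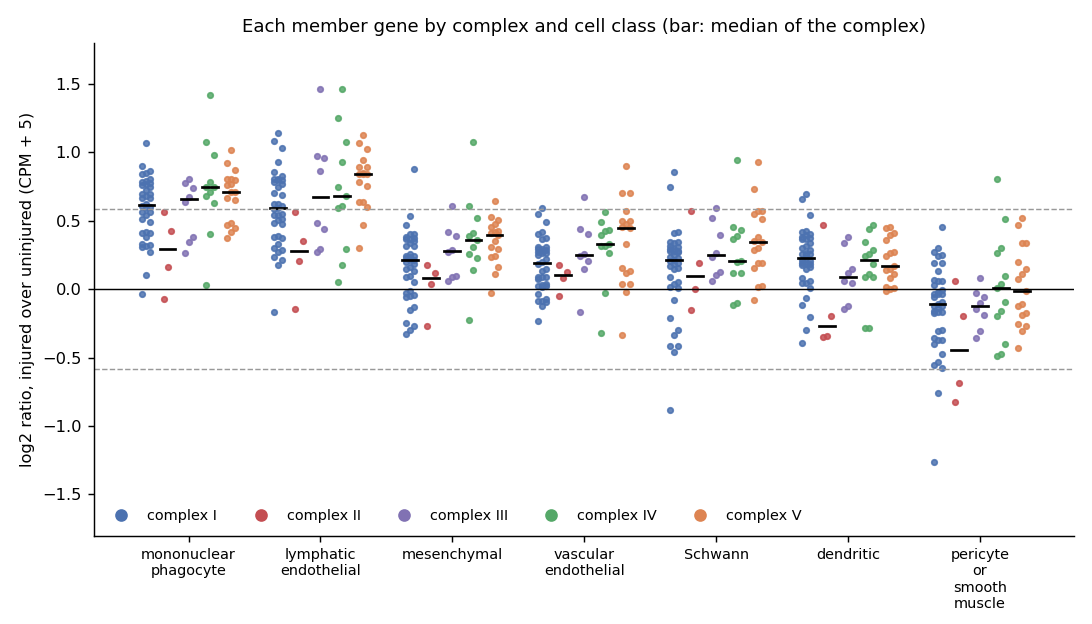
Log2 ratio of each member at 20 CPM or more (y axis, injured over uninjured, CPM + 5) in each class (x axis), coloured by complex, with a black bar for the median of the complex and dashed lines at 1.5-fold. In phagocytes and lymphatic endothelial cells most points lie above the upper line, and in pericyte or smooth muscle cells 4 lie below the lower one.

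In complex I, 22 of 38 members were higher in phagocytes (11.2% of all genes) and 19 of 38 in lymphatic endothelial cells (23.2%). In mesenchymal cells 1 of 39 was higher (11.0%) and in vascular endothelial cells 1 of 38 (11.4%), both below the share of all genes. Ndufa4 (chr6:11900292-11907497, minus strand, mm10), which carries a complex I name but is now known as a subunit of complex IV, stood out. It was at 361 CPM in injured and 170 in uninjured phagocytes (ratio 2.12, 2.00 to 2.26), at 550 and 297 in mesenchymal cells (1.85, 1.81 to 1.89), at 483 and 265 in Schwann cells and at 381 and 233 in dendritic cells. In pericyte or smooth muscle cells it went the other way, at 128 and 313 CPM (log2 ratio -1.26; ratio 0.407, 0.375 to 0.443), and both main clusters shared that order (109 and 207 CPM in cluster 11, 290 and 442 in cluster 27).

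Single core and accessory subunits of complex I had ratios in either direction, in different classes. Ndufs1, the large iron-sulfur subunit that takes electrons from the flavin, stood at 30.3 and 31.3 CPM in phagocytes, a log2 ratio of -0.04, and at 38.9 and 69.1 CPM in pericyte or smooth muscle cells (-0.76). The latter value joins the Rgs5-led and Myh11-led clusters, which the libraries hold in unequal numbers. Ndufv1, which binds the flavin, had 58.9 and 35.4 CPM in dendritic cells, from 227 and 75 UMIs. The accessory subunit Ndufa13 was lower in injured Schwann cells (281 and 523 CPM, log2 ratio -0.89), the 1 member past 1.5-fold downward in a compared class other than pericyte or smooth muscle cells. The lowest mesenchymal ratios were those of the accessory subunits Ndufa6 (126 and 159 CPM) and Ndufb4 (143 and 176 CPM), both short of 1.5-fold. The accessory subunit Ndufa10 had the lowest ratio in dendritic cells, at 55.2 and 74.1 CPM, also short of it.

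No complex II gene passed 1.5-fold upward in any compared class. Sdha (chr13:74322254-74350280, minus strand) was among the 3 members with the lowest ratios in phagocytes (75.4 and 79.6 CPM), mesenchymal cells (56.0 and 68.6), lymphatic endothelial cells (76.9 and 85.4), dendritic cells (62.0 and 80.3) and pericyte or smooth muscle cells (66.3 and 121; log2 ratio -0.82). The pericyte value passed 1.5-fold, as did that of Sdhc there (110 and 180 CPM, -0.69). Both values join the Rgs5-led and Myh11-led clusters, which the libraries hold in unequal numbers. Sdhb leaned the other way from Sdha, with 112 and 74.4 CPM in phagocytes (ratio 1.51, 1.37 to 1.66; log2 ratio with the pseudocount 0.56) and 109 and 71.7 CPM in lymphatic endothelial cells. Sdhd lay between them in phagocytes, at 63.7 and 56.3 CPM. The catalytic and the iron-sulfur subunit of the same enzyme were thus unequal in their ratios.

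In complex III, 5 of 8 members were higher in phagocytes (11.2% of all genes) and 4 of 8 in lymphatic endothelial cells (23.2%). Uqcrfs1, the Rieske iron-sulfur protein, had 132 and 44.8 CPM in lymphatic endothelial cells (log2 ratio 1.46; ratio 2.96, 2.34 to 3.76), level with Cox5a as the highest ratio there. It was also higher in vascular endothelial cells (107 and 65.6 CPM, 0.67) and in phagocytes (90.3 and 56.1 CPM). Uqcrq, a small subunit, had 298 and 193 CPM in mesenchymal cells (0.61), where it was the 1 complex III member past 1.5-fold. Uqcrh, the most abundant, had 342 and 284 CPM in phagocytes and did not reach 1.5-fold.

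In complex IV, 9 of 11 members were higher in phagocytes (11.2% of all genes) and 8 of 11 in lymphatic endothelial cells (23.2%). Cox5a (chr9:57521274-57532426, plus strand), a small nuclear subunit, had the highest ratio of all members in phagocytes, mesenchymal and Schwann cells and shared it in lymphatic endothelial cells. Its level was 439 and 162 CPM in phagocytes (ratio 2.72, 2.55 to 2.89), 480 and 171 in lymphatic endothelial cells (2.81, 2.50 to 3.17), 271 and 126 in mesenchymal cells (2.15, 2.08 to 2.23) and 344 and 177 in Schwann cells (1.95, 1.69 to 2.25). In vascular endothelial, dendritic and pericyte or smooth muscle cells the levels were 369 and 248, 364 and 262, and 297 and 206 CPM, all in the same direction and short of 1.5-fold with the pseudocount. Within clusters it was 420 and 152 CPM in cluster 5, 384 and 167 in cluster 13 and 294 and 107 in the Rgs5-led cluster 11, but 148 and 113 in fibroblast cluster 4 and 278 and 238 in capillary-type cluster 0. The gap was therefore wide in macrophage, lymphatic and pericyte clusters and narrow in the shared fibroblast and capillary-type ones.

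Other complex IV members showed the span of the complex. Cox5b, the zinc-binding subunit, had 317 and 148 CPM in phagocytes (log2 ratio 1.08) and 315 and 205 CPM in mesenchymal cells (0.61). Cox7b had 285 and 117 CPM in lymphatic endothelial cells (1.25). Cox7a2l (chr17:83501918-83517330, minus strand), which joins complexes III and IV into a supercomplex, was nearly level at 253 and 248 CPM in phagocytes, 240 and 232 CPM in lymphatic endothelial cells and 148 and 174 CPM in mesenchymal cells. Cox6a1, the general form of subunit 6a, had 185 and 233 CPM in vascular endothelial cells, 1 of the lowest ratios of that class.

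In complex V, 12 of 17 members were higher in phagocytes (11.2% of all genes) and 15 of 17 in lymphatic endothelial cells (23.2%). In vascular endothelial cells 3 of 17 were higher (11.4%) and in mesenchymal cells 1 of 17 (11.0%). Atp5md, a small subunit of the membrane part, had 236 and 114 CPM in phagocytes (log2 ratio 1.02), and Atp5d, the delta subunit of the central stalk, 361 and 163 CPM in lymphatic endothelial cells (1.13) and 281 and 171 in vascular endothelial cells (0.71). Atp5mpl, another small membrane subunit, had 224 and 135 CPM in vascular endothelial cells (0.71). Atp5j, coupling factor 6 of the outer stalk, had the lowest ratio there, at 364 and 461 CPM (-0.34).

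The same c subunit of the complex V rotor is made from 3 genes, Atp5g1, Atp5g2 and Atp5g3, whose mature proteins are identical, and their balance was not the same in all classes. Over all cells Atp5g2 gave 44.1% of their UMIs in the injured and 44.6% in the uninjured library, Atp5g1 32.7% and 29.6%, and Atp5g3 23.2% and 25.8%. In mesenchymal cells Atp5g1 was at 39.3% and 35.5%, and in vascular endothelial cells Atp5g2 was at 54.3% and 48.0%. In uninjured pericyte or smooth muscle cells Atp5g3 led with 40.6%, against 30% in injured ones. These shares join the Rgs5-led and Myh11-led clusters, which the libraries hold in unequal numbers, and were not computed by cluster. Atp5g2 had 484 and 257 CPM in vascular endothelial cells (log2 ratio 0.90), the highest ratio of that class, and Atp5g1 339 and 214 CPM in mesenchymal cells (0.65). Atp5g1 was also among the highest ratios of pericyte or smooth muscle cells, at 275 and 191 CPM (0.52), a value of the same mixture of clusters.

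Most members were spread over all classes, and 7 had a level in their highest class over 3 times that of the median class in a library: Cox4i2, Ndufa4l2, Cox6a2, Cox6b2, Cox7a1, Cox8b and, in the uninjured library only, Sdhc (3.08 times). The pericyte or smooth muscle class was the highest of those with 50 or more cells for Cox4i2, Ndufa4l2 and Cox7a1 in both libraries, for Cox6b2 in the injured and for Sdhc also in both. Cox7a1, a muscle isoform of subunit 7a, was low there at 10.0 and 22.5 CPM (10.2 and 4.15 times the median class). Cox4i2 (chr2:152754173-152765037, plus strand), the isoform of subunit 4 known from lung and from low oxygen, had 157 and 176 CPM there, where the median class had 1.42 and 2.01 CPM. It gave 16.0% (15.3 to 16.7) of Cox4i1 and Cox4i2 UMIs in injured and 18.6% (17.2 to 20) in uninjured cells of the class. In the small uninjured cluster 32 (38 cells, led by Rgs5 and Abcc9) it gave 54.0%.

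Ndufa4l2 (chr10:127514967-127517154, plus strand), a paralogue of Ndufa4 known as a target of hypoxia-inducible factor and as a pericyte gene, had 585 and 473 CPM in the same class. It gave 82.1% (81.2 to 83.0) of the UMIs of both genes in injured and 60.2% (58.2 to 62.1) in uninjured cells. The share was 84.3% and 63.5% in cluster 11 and 65.5% and 47.8% in the Myh11-led cluster 27, so it was higher in the injured library in both. In cluster 32 it had 409 UMIs and Ndufa4 had 0, which allows Ndufa4 up to 8.52 CPM, and 97.4% of the cells had an Ndufa4l2 UMI (median depth 7443 UMIs), where 6.08% did in capillary-type cluster 0 (12601 UMIs). Elsewhere Ndufa4 was the main form: Ndufa4l2 gave 10.6% and 19.5% in mesenchymal cells, 23.8% in keratinocytes of the injured library and 0.714% and 2.72% in vascular endothelial cells.

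**Figure D4:**
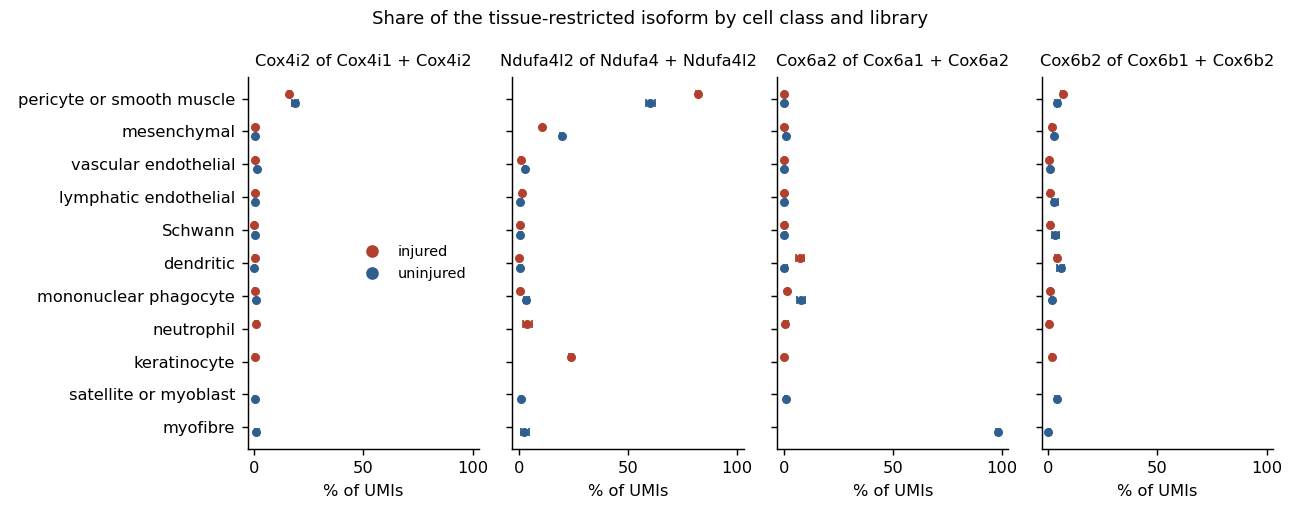
Share of UMIs (x axis, percent) of the tissue-restricted isoform in 4 isoform pairs, by class (y axis), injured library in red and uninjured in blue, with Clopper-Pearson 95% intervals. Ndufa4l2 (82.1% and 60.2%) and Cox4i2 (16.0% and 18.6%) are high in pericyte or smooth muscle cells, and Cox6a2 (98.3%) in the myofibre-like cluster.

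The muscle isoforms marked the myofibre-like cluster. Cox6a2 (chr7:128205435-128206387, minus strand) gave 98.3% of subunit 6a UMIs there (849 against 15 of Cox6a1), Cox8b 87.8% of subunit 8 and Cox7a1 50.1% of subunit 7a. Cox6a2 was also high in cluster 31 of the injured library (63 cells, led by Igkc, Siglech, Irf8 and Ccr9, left unnamed), at 84.1% of the pair (477 against 90 UMIs), 771 CPM and a UMI in 50.8% of cells (median depth 10183 UMIs), where 1.01% of cells had one in capillary-type cluster 0 of that library (9158 UMIs). In uninjured phagocytes it gave 7.96% and in injured ones 1.65%. Summed myofibre markers moved with that share, at 289 CPM in uninjured and 14.7 CPM in injured phagocytes with all 8 detected in both, and their part in it was not tested. The levels of muscle isoforms outside the myofibre-like cluster and cluster 31 are therefore given without a direction. Cox6b2 (chr7:4751792-4753094, minus strand), known as the testis form of subunit 6b, was at 30.5 and 15.3 CPM in pericyte or smooth muscle cells (ratio 1.99, 1.47 to 2.74), from 325 and 49 UMIs. The testis isoforms Cox7b2 and Cox8c had 8 and 1, and 2 and 0 UMIs over all kept cells.

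The subunits coded in the mitochondrial genome had the opposite order from the nuclear ones in every compared class but pericyte or smooth muscle cells. There both were lower in the injured library (nuclear ratio 0.925). Their 13 genes summed to 33040 and 49380 CPM in phagocytes (ratio 0.669), 29740 and 48710 CPM in lymphatic endothelial cells (0.610) and 29350 and 45120 CPM in mesenchymal cells (0.651). The ratios in vascular endothelial, dendritic, Schwann and pericyte or smooth muscle cells were 0.774, 0.575, 0.535 and 0.503. Past 1.5-fold, 6 of 13 were lower in phagocytes, 6 in vascular endothelial, 8 in mesenchymal, 11 in dendritic and lymphatic endothelial, 12 in Schwann and 13 in pericyte or smooth muscle cells, and 0 were higher in any of them. The limit on mitochondrial UMIs trims these levels and removed unequal shares of the libraries, as given above. With a limit of 20% the ratios ran from 0.373 to 0.751, and with 5% from 0.623 to 0.891, below 1 in every compared class.

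**Figure D5:**
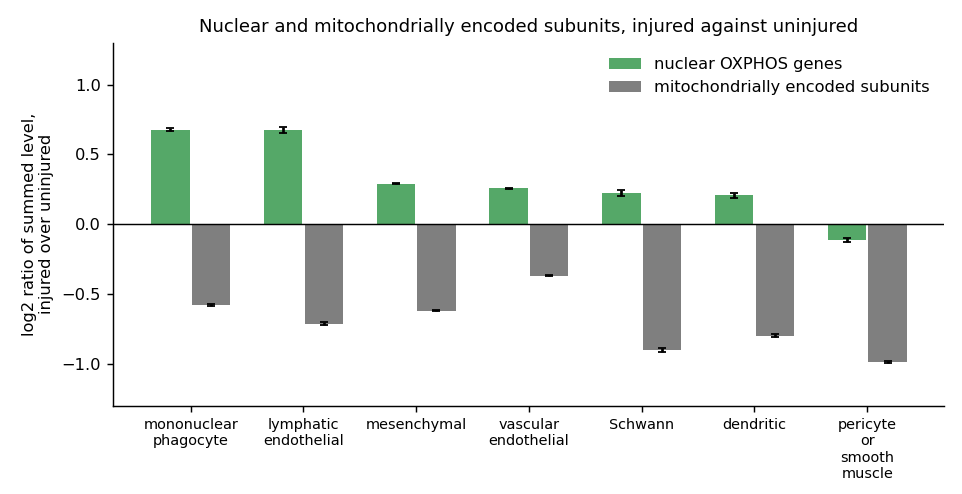
Log2 ratio of the summed level, injured over uninjured (y axis), of the 86 nuclear genes (green) and the 13 mitochondrially encoded subunits (grey) in each class (x axis), with 95% intervals for counting error. Green bars are above 0 in 6 of 7 classes and grey bars below 0 in all 7.

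Other genes of mitochondria and energy metabolism, taken from lists and not from their movement, were compared in the same way. Cycs, the cytochrome c that links complexes III and IV, had 130 and 66.1 CPM in phagocytes, 309 and 98.7 in lymphatic endothelial cells and 171 and 90.8 in mesenchymal cells. In the other classes the cytochrome c and c1 genes together were closer or reversed. They had 230.9 and 198.7 CPM in vascular endothelial and 305.5 and 318.3 in pericyte or smooth muscle cells. Dendritic cells had 270.7 and 201.7 and Schwann cells 358.7 and 233.4 CPM. Atpif1, the inhibitor of complex V, had 268 and 168 CPM in phagocytes, 329 and 135 in lymphatic endothelial and 300 and 161 in mesenchymal cells. In vascular endothelial cells Atpif1 had 257 and 124 CPM. It also had 419 and 277 CPM in pericyte or smooth muscle cells, where the summed OXPHOS ratio was below 1. Of mitochondrial ribosomal proteins, 57 of 71 were higher in lymphatic endothelial cells (23.2% of all genes), 25 of 57 in phagocytes (11.2%), 30 of 67 in Schwann (23.7%) and 14 of 66 in vascular endothelial cells (11.4%). In mesenchymal cells 8 of 65 were higher, near the 11.0% of all genes, and in pericyte or smooth muscle cells 12 of 68, near the 16.9% of all genes. In dendritic cells 6 of 57 were higher (12.3%). Of import and carrier genes, 17 of 21 were higher in lymphatic endothelial cells (23.2%), 11 of 21 in Schwann cells (23.7%) and 10 of 18 in phagocytes (11.2%). Counts were smaller elsewhere: 4 of 21 in mesenchymal (11.0%) and 3 of 20 in vascular endothelial cells (11.4%). Pericyte or smooth muscle cells had 3 of 21 (16.9%) and dendritic cells 1 of 19 (12.3%).

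Of glycolysis genes, 10 of 15 were higher in phagocytes (11.2% of all genes), 9 of 13 in lymphatic endothelial (23.2%), 7 of 12 in mesenchymal (11.0%), 4 of 13 in vascular endothelial (11.4%), 4 of 13 in Schwann (23.7%, with 2 lower) and 3 of 14 in pericyte or smooth muscle cells (16.9%). In dendritic cells 0 of 14 were higher (12.3%). Eno1, a glycolytic enolase, had 189 and 97.8 CPM in phagocytes and 185 and 78.6 CPM in mesenchymal cells. The tricarboxylic acid cycle had 8 of 14 higher in lymphatic endothelial cells and 1 of 14 in phagocytes, and fatty acid oxidation 4 of 13 and 0 of 13. The first of these is above the 23.2% of all genes in lymphatic endothelial cells and the others are near or below the background of their class. Complex I assembly factors had 1 of 4 and 0 of 2 (23.2% and 11.2% of all genes). Of regulators of mitochondrial biogenesis at 20 CPM or more, 0 of 7 were higher in phagocytes (11.2%) and 0 of 8 in lymphatic endothelial cells (23.2%). The counts were 0 of 6 in mesenchymal (11.0%), 0 of 8 in vascular endothelial (11.4%) and 1 of 7 in Schwann cells (23.7%). Pericyte or smooth muscle cells had 0 of 8 (16.9%) and dendritic cells 0 of 4 (12.3%). In lymphatic endothelial, pericyte or smooth muscle and dendritic cells 1 regulator each was lower. With so few genes, counts of 0 or 1 are not set apart from these shares. Cytosolic ribosomal proteins, which hold a large part of all UMIs, had 7 of 86 higher in phagocytes (11.2% of all genes) and 52 of 86 in lymphatic endothelial cells (23.2%). They had 50 of 85 higher in vascular endothelial (11.4%), 65 of 85 in Schwann (23.7%) and 50 of 84 in pericyte or smooth muscle cells (16.9%). Mesenchymal cells had 9 of 85 (11.0%) and dendritic cells 1 of 86 (12.3%). The phagocyte difference in OXPHOS genes thus stood beside few of these and the lymphatic endothelial one beside many. Many were also higher in Schwann and pericyte or smooth muscle cells, whose summed OXPHOS ratios were 1.17 and 0.925.

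Members followed each other across clusters. The correlation of each member's log2 level with the sum of the other members, over clusters of 50 or more cells, had a median of 0.82 over 26 injured and 0.79 over 19 uninjured clusters, and 48 of 86 and 42 of 85 members reached 0.8. These are descriptions: clusters of a library share its depth and its free RNA. The same share was not computed over all genes, so it is not shown to be particular to the members. The closest in the injured library were Cox7c, a small complex IV subunit, and Atp5k, the e subunit of complex V whose promoter is printed above (0.96 each, and 0.96 each in the uninjured library). In the uninjured library Cox5b (0.98) and Atp5h, the d subunit of complex V (0.97), were closer. The lowest values in both libraries were those of the muscle isoforms Cox8b (-0.31 and -0.22) and Cox6a2 (-0.09 and -0.47). In the injured library Cox8c (0.12), Cox7b2 (0.15) and Cox4i2 (0.25), of few UMIs or of 1 class, followed. Cox7a2l had 0.33 and -0.13 and Sdha 0.35 and 0.22, below most members but not the lowest.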

How the data were processed

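The 2 deposited matrices hold UMI counts per gene and barcode, made with Cell Ranger 5.0.1 on mm10, per the submitters' processing notes; the whole numbers were used as deposited. How reads shared by near-identical genes were treated is not stated in these sources, so members with close pseudogene copies are uncertain. Barcodes needed 500 genes and no more than 10% mitochondrial UMIs. Scrublet (scanpy 1.11.5) marked 1 cell per library at its automatic threshold, so a score above 0.2, set after seeing the data, removed 229 injured and 63 uninjured cells. Free RNA and doublets of similar cells were not corrected for.

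Cells were clustered together (2000 variable genes, 30 components, 15 neighbours, Leiden at resolution 0.8, igraph 0.11.9, scikit-learn 1.9.0), and no batch correction was made because each library is 1 condition. Clusters took the marker list with the highest mean log2 ratio and at least 3 detected markers. Haemoglobin genes were left out of naming, a choice made after seeing the data, and clusters whose 10 top genes favoured another class stayed unnamed. UMIs were summed per class and library and scaled to CPM. Log2 ratios used a pseudocount of 5 CPM for single genes and none for sums, and were checked on simulated counts. Coordinates are GENCODE vM21, mm10.

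Named genes are, per class, the 3 members at each end of the ordered ratios, the 2 most abundant of each complex, isoforms, the Sdh genes and members over 3 times the median class. Uqcrb, Atp5h, Atp5md, Cox7c and Atp5k were named after their values were seen. Cycs and Eno1 are single genes picked from their lists. The members and all lists were chosen with earlier results of these data known.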

Additional observations from a re-analysis of the deposited data

How the results depend on the processing

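No paired analysis was possible because each group had 1 library. Over 11 other settings and those chosen after seeing the data (cells of 10000 to 40000 UMIs, means over clusters shared by both libraries, and classes without a named cluster), the summed log2 ratio stayed above 0 in phagocytes (0.46 to 0.75), vascular endothelial (0.08 to 0.34), lymphatic endothelial (0.29 to 0.77) and dendritic cells (0.11 to 0.23). For dendritic cells, clustering each library alone and resolution 1.5 gave no value, since fewer than 20 uninjured cells were then so named. It changed sign in mesenchymal, pericyte or smooth muscle and Schwann cells; beyond the clusters and cells that an alternative removes, the cause was not tested.

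Mesenchymal cells, at 0.29, had 0.30 and 0.36 with mitochondrial limits of 20% and 5%, 0.30 with doublets kept, 0.32 with mitochondrial, ribosomal and haemoglobin UMIs left out of the total, 0.41 on a median-of-ratios scale, 0.23 with thinned cells, 0.30 and 0.26 in cells with Xist and with Y-linked UMIs, 0.28 without Ndufa4, Ndufa4l2 and Cox7a2l, 0.21 in the depth range and -0.05 in the shared cluster. Phagocytes, at 0.68, had 0.75 and 0.72 with the 2 limits, 0.69 with doublets kept, 0.57 with each library clustered alone, 0.59 at resolution 1.5, 0.75 on the median-of-ratios scale, 0.60 thinned, 0.66 and 0.49 by sex, 0.62 in the depth range, 0.54 without the osteoclast-like cluster and 0.46 over shared clusters. Vascular endothelial cells, at 0.26, had 0.21 and 0.20 with the limits, 0.19 clustered alone, 0.34 with the reduced total, 0.22 on the median-of-ratios scale, 0.16 thinned, 0.18 and 0.32 by sex, 0.08 in the depth range and 0.11 over shared clusters. Pericyte or smooth muscle cells, at -0.11, had -0.34 and 0.41 with the limits, -0.10 with doublets kept, 0.24 clustered alone, -0.09 with the reduced total, -0.08 on the median-of-ratios scale, -0.08 thinned, -0.09 and -0.15 by sex, -0.16 in the depth range, 0.38 without the Myh11-led cluster and 0.34 over shared clusters. Schwann cells, at 0.22, had -0.11 clustered alone.

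Of the counts of members past 1.5-fold, those past 2-fold upward were 1 in mesenchymal (of 5), 4 in phagocytes (of 48), 0 in vascular endothelial (of 5), 0 in pericyte or smooth muscle (of 1) and 10 in lymphatic endothelial cells (of 46), and 1 of 4 was past it downward in pericyte or smooth muscle cells. The median-of-ratios scale gave 11 higher in mesenchymal cells. The depth range gave 2 in mesenchymal (7.09% of all genes), 1 in vascular endothelial (10.9%) and 8 in lymphatic endothelial cells (17.3%). Without the level filter, 1 mesenchymal, 3 phagocyte and 2 vascular endothelial members were lower, in place of 0. The share of all genes was not computed at 2-fold, on the median-of-ratios scale or without the level filter. Those counts therefore cannot be placed above or below a background. Injury, library and any difference between mice cannot be told apart with 1 library per group, and classes near 50 cells and genes near 20 CPM have the widest counting intervals.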
